A study of Peniophora incarnata with 12 samples.

Results

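Oxidative phosphorylation in the white-rot fungus Peniophora incarnata was described here through 109 genes of 16059 listed in the deposited expression table. The members were all genes whose pathway annotation holds the name oxidative phosphorylation, and they were sorted into complexes by their description. By that sorting 14 genes belonged to complex I, 5 to single-subunit NADH dehydrogenases, 7 to complex II, 9 to complex III and 4 to cytochrome c. A further 6 genes were subunits of complex IV, 3 encoded proteins that supply its cofactors, 30 belonged to the mitochondrial ATP synthase and 18 to the V-type ATPase. The remaining members were 3 plasma membrane ATPases, 1 inorganic pyrophosphatase, 1 gene described as Lactobacillus shifted protein (lbsA) and 8 genes with no description. The pathway label thus also covers proton pumps outside the mitochondrion. Only 2925 of all genes carry any pathway name, and 10 further genes are described as subunits of these complexes without it.

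The series asked how the transcriptome of the wild type strain T-7 differs between lignocellulosic substrates and a control medium. Mycelium was grown for 30 days on poplar wood, on Chinese fir wood, on rice straw or on PDA (potato dextrose agar), with 3 biological replicates on each and no further treatment. The cultures stood in the dark without shaking at 28 °C and 75% relative humidity, and the plant materials were given as powders sieved at 60 mesh. RNA was extracted with TRIzol and poly(A) RNA was sequenced from stranded libraries, 12 in all. Every group shares the genotype and the harvest day, so growth stage on each substrate was not varied separately.

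The mitochondrial respiratory chain passes electrons from NADH and succinate through complexes I and II to ubiquinone, then through complex III and the small carrier cytochrome c to complex IV, which reduces oxygen. Complexes I, III and IV pump protons across the inner membrane, and ATP synthase uses their return flow to make ATP. Many fungi also carry single-subunit NADH dehydrogenases and an alternative oxidase, which move electrons without pumping protons. The V-type ATPase and the plasma membrane ATPase spend ATP instead, acidifying the vacuole and energising the plasma membrane.

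The deposited values are FPKM, read fragments per kilobase of gene model scaled to the library total, so levels of different genes can be set side by side. Whole reads worked back from them gave 23398461 to 31132066 reads a library, and 96 of the 105 tested members had at least 100 reads in every library. A gene was tested where it reached 1 FPKM in at least 3 libraries, which left 13974 genes. A gene is said to be called, to rise or to fall where limma on log2(FPKM + 1) gave a p, adjusted by Benjamini-Hochberg across the tested genes, under 0.05 and a difference of at least 1 on the log2 scale, which is 2-fold. All folds below are differences on that log2(FPKM + 1) scale with their standard error, and these understate changes of genes near 1 FPKM. Fungal structural genes were present in every library, with summed levels of 860 to 1936 FPKM for 11 tubulin genes and 149 to 570 FPKM for 20 hydrophobin genes. In bulk RNA of this kind fewer hyphae of a type and less RNA per hypha cannot be told apart.

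The 4 members that did not reach the filter were the ATP1 gene A03677, the ATP17 gene A03737, the sdh1 gene A13044 and the sdh3 gene A19269. A03737 was listed at 0 in 11 libraries and at 0.0592 FPKM in the other, Chinese fir wood replicate 2. A13044 stayed at or below 0.0272 FPKM. A03677 lay between 0.35 and 1.64 FPKM and A19269 between 0 and 1.39 FPKM. Each of these 4 has a more strongly expressed gene of the same name among the tested members.

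Replicates of one medium did not lie equally close together. On Chinese fir wood, replicate 2 gave the lowest of the 3 values for 97 of 105 tested members, against 45.9% of all tested genes, and replicate 3 the highest for 91 members. On poplar wood, replicate 1 was lowest for 86 members and replicate 3 highest for 90, against 53.3% and 44.0% of all tested genes. The median SD across replicates was 0.50 log2 units for members and 0.46 for all tested genes on poplar wood, and 0.36 and 0.19 on Chinese fir wood. On PDA it was 0.13 and 0.15, and on rice straw 0.11 and 0.18. Poplar wood replicate 2 lay between its 2 partners in 57.9% of all tested genes. Chinese fir wood replicate 1, rice straw replicate 3 and PDA replicate 2 did so in 64.8%, 58.2% and 60.4%. Counts of calls are therefore also given without single libraries and without these 3, called the intermediate libraries. That set was chosen in an earlier analysis of the same data. Among members these 3 lay between their partners in 90.5%, 42.9% and 66.7%, and poplar wood replicate 2, which was kept, in 88.6%. Leaving out a middle replicate keeps the outer 2, so the spread tends to widen, and residual degrees of freedom fall. Calls can thus be lost in that setting without a smaller difference. The origin of the replicate differences was not tested.

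**Figure D1:**
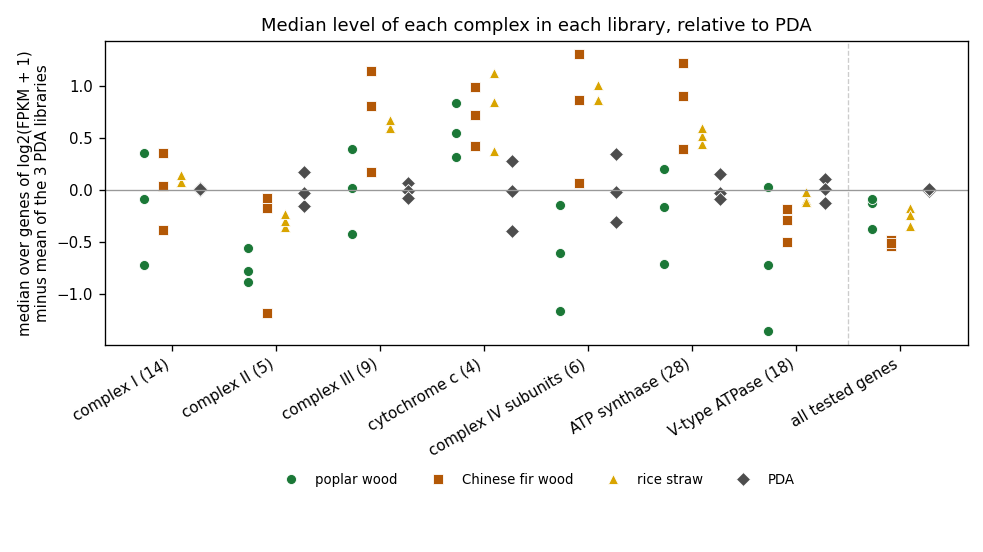
Median over the tested genes of each complex of log2(FPKM + 1) minus that gene's mean over the 3 PDA libraries, one point per library, with the number of tested genes in brackets and all tested genes at the right. Complex IV subunits lie below 0 in all 3 poplar wood libraries and above 0 in all Chinese fir wood and rice straw libraries, while the spread among poplar wood and among Chinese fir wood libraries is wide in most complexes.

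Across the 4 media, 68 of the 105 tested members differed by the F test of limma (adjusted p under 0.05), against 74% of all tested genes. The share was therefore no higher than the background. It varied by complex, with 6 of 6 complex IV subunits, 4 of 4 cytochrome c genes, 7 of 9 complex III genes, 22 of 28 ATP synthase genes and 11 of 18 V-type ATPase genes, but 2 of 14 complex I genes. Leaving out 1 library at a time gave 52 to 86 members, and leaving out the 3 intermediate libraries gave 21. By single comparisons, 60 tested members were called in none and 45 in at least 1. Counts over more than 1 comparison, here and below, were not made for all tested genes, so they have no background share. Counts in fits with fewer libraries, or of only 2 groups, likewise lack that share for the same fit. Whether shifts of those counts are particular to the members was not tested.

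On the deposited scale, the comparisons of poplar wood with another plant material held the most calls. Against Chinese fir wood, 23 members fell on poplar wood, where 6.73% of all tested genes fell, and 3 rose, where 17.5% of all tested genes rose. The median difference was -0.48 over the members and 0.30 over all tested genes, so the members lay on the other side of the bulk of genes. Against rice straw, 23 members fell, with 14.4% of all tested genes falling, and 3 rose, with 14.4% rising. The median was -0.56 over the members and 0.07 over all tested genes. The share of tested members called lower was 21.9% in each of these comparisons, which share the poplar wood libraries, and 16 genes were called lower in both. Taking only complexes I to IV, cytochrome c and ATP synthase, 18 of 66 tested genes fell against Chinese fir wood and 15 against rice straw, and none rose. Of the 23 calls lower than on Chinese fir wood, 15 held without any 1 of the 6 libraries, and of the 23 lower than on rice straw, 14 held. The count against Chinese fir wood became 35 without poplar wood replicate 3, 37 without Chinese fir wood replicate 2 and 14 when the 3 intermediate libraries were left out. The count against rice straw became 38 without poplar wood replicate 3 and 14 when the 3 intermediate libraries were left out. Calls higher on poplar wood numbered 5 against Chinese fir wood and 6 against rice straw without poplar wood replicate 1.

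Against PDA fewer members were called on the deposited scale, and the 3 comparisons share the PDA libraries. On poplar wood 10 members fell, with 17.1% of all tested genes falling, and 1 rose, with 8.3% rising. On Chinese fir wood 10 members rose, with 5.91% of all tested genes rising, and 5 fell, with 24.5% falling. On rice straw 5 members rose, with 6.81% of all tested genes rising, and 3 fell, with 14.1% falling. The median differences of the members were -0.26, 0.35 and 0.15 on the 3 substrates, beside -0.18, -0.51 and -0.25 for all tested genes. No member was called in the same direction on all 3 substrates, and 2 were higher on both Chinese fir wood and rice straw. The poplar wood count of falls was 4 without poplar wood replicate 1 and 25 without poplar wood replicate 3. The Chinese fir wood count of rises was 29 without Chinese fir wood replicate 2, 2 without replicate 3, 17 without PDA replicate 1 and 6 without PDA replicate 3, and its falls numbered 8 without Chinese fir wood replicate 3. On rice straw the rises numbered 8 without PDA replicate 1, and the falls numbered 1 without rice straw replicate 1.

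Between Chinese fir wood and rice straw 10 members were called. Of these, 4 were higher on Chinese fir wood, with 5.7% of all tested genes higher, and 6 were lower, with 14.2% lower. The median was 0.01 over the members and -0.23 over all tested genes. The count of higher members was 7 without Chinese fir wood replicate 2, 0 without Chinese fir wood replicate 3, 1 without rice straw replicate 1 and 2 without rice straw replicate 2.

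The scale of the deposited values bears on the split between rises and falls. Dividing each library by its median ratio to the mean library brought the all-gene medians to between -0.02 and 0.02 in every comparison, a shift of up to 0.49 log2 units from the deposited scale. On that scale 47 members rose and 1 fell on Chinese fir wood against PDA, where 11.7% of all tested genes rose and 11% fell. On rice straw against PDA 23 rose and 1 fell, with 10% and 8.25% of all tested genes. Against Chinese fir wood 39 members were lower on poplar wood, with 11.4% of all tested genes lower, and 3 were higher, with 9.64%. Against rice straw 31 were lower, with 15.6%, and 3 were higher, with 13.3%. Between Chinese fir wood and rice straw 13 were then higher and 4 lower, with 9.17% and 9.82% of all tested genes. On poplar wood against PDA the counts were 1 higher and 7 lower, with 11.3% and 12.6% of all tested genes. In the comparisons of poplar wood with Chinese fir wood and with rice straw, calls lower on poplar wood outnumbered calls higher on both scales. Against PDA the counts depended on the scale, and the median over the members moved from -0.26 to -0.04 on poplar wood, from 0.35 to 0.88 on Chinese fir wood and from 0.15 to 0.43 on rice straw. Chinese fir wood against PDA then held the most calls of the 6 comparisons.

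By the adjusted p alone, without the 2-fold rule, 41 members were lower on poplar wood than on Chinese fir wood, with 11.3% of all tested genes lower, and 3 were higher, with 29.8%. Against rice straw 43 were lower, with 22.2%, and 8 were higher, with 24.6%. Against PDA 23 were lower on poplar wood and 3 higher, with 27% and 14.6% of all tested genes. On Chinese fir wood 15 were lower than on PDA and 29 higher, with 41.4% and 9.47%. On rice straw 4 were lower than on PDA and 23 higher, with 25.4% and 11.3%. Between Chinese fir wood and rice straw 9 were higher and 11 lower, with 9.6% and 23.7%. Most members that passed the adjusted p in the PDA comparisons of Chinese fir wood and rice straw differed by less than 2-fold. On the median-ratio scale the adjusted p alone gave 12 lower and 10 higher members for poplar wood against PDA, with 21.1% and 20.4% of all tested genes. It gave 3 lower and 61 higher for Chinese fir wood, with 19% and 19.8%, and 3 lower and 39 higher for rice straw, with 16% and 17%. For poplar wood against Chinese fir wood it gave 62 lower and 3 higher, with 19.6% and 18.9%, and against rice straw 52 lower and 7 higher, with 24.2% and 23.4%. Between Chinese fir wood and rice straw it gave 25 higher and 5 lower, with 17.1% and 16.4%, so the balance turned with the scale.

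**Figure D2:**
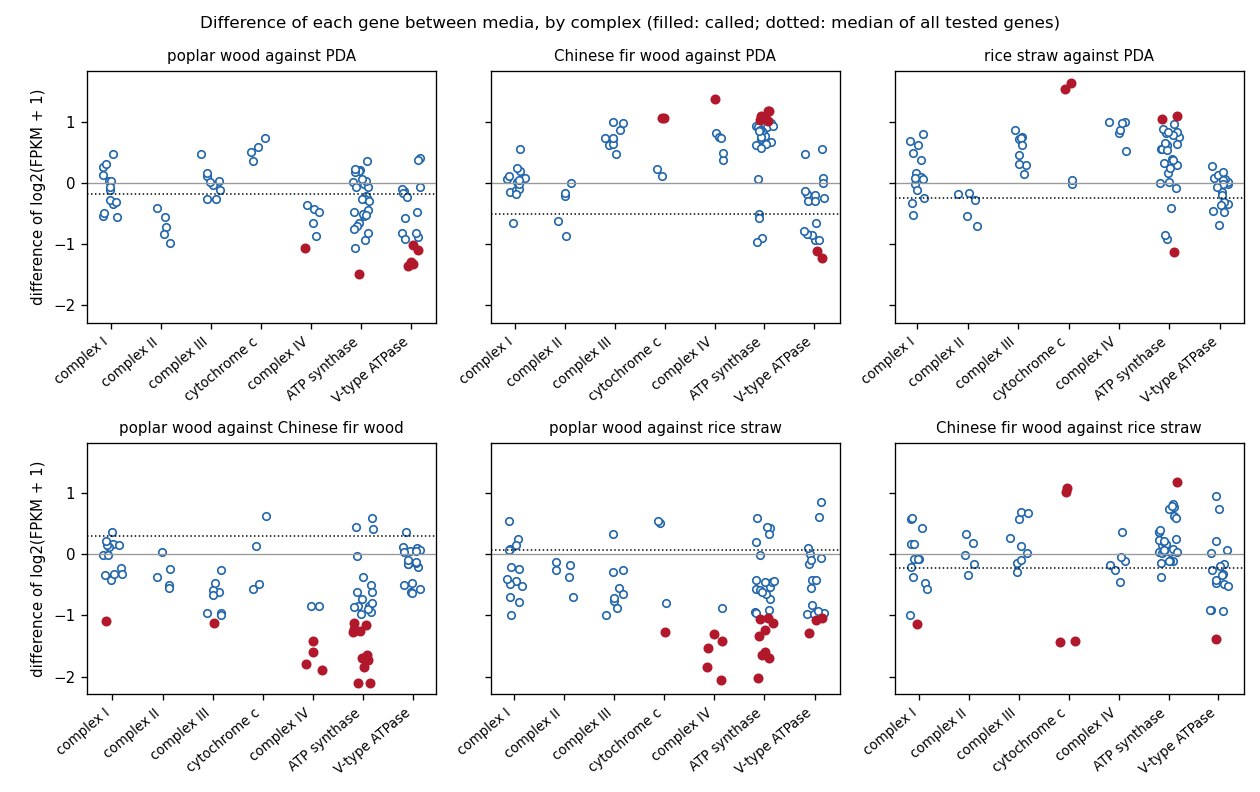
Difference of log2(FPKM + 1) between media for each tested gene of 7 groups, one panel per comparison, with called genes filled and the median of all tested genes as a dotted line. In both comparisons of poplar wood with another plant material, complex IV and ATP synthase genes hold most of the filled points below 0, and complexes I and III hold few.

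Levels differed by complex. Cytochrome c had the most abundant single genes, with means over the 12 libraries of 1100.0 and 1020.1 FPKM for the cyc1 genes, but of 16.9 and 18.4 FPKM for its other 2 genes. Median levels were 222 FPKM for complex IV subunits, 163 for complex III, 115 for ATP synthase, 77.9 for complex I, 51.3 for the V-type ATPase, 19.8 for single-subunit NADH dehydrogenases and 18.9 for the 5 tested complex II genes. Within ATP synthase the means ran from 1.95 to 884 FPKM, a wider range than in complex III, where they ran from 137 to 328 FPKM. All members together made up 1.48% to 2.06% of summed FPKM on poplar wood, 1.89% to 3.08% on Chinese fir wood, 2.06% to 2.24% on rice straw and 1.71% to 2.09% on PDA. The lowest library was poplar wood replicate 1, the highest was Chinese fir wood replicate 3, and the ranges overlapped.

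Complex I oxidises NADH from the matrix. Of 14 tested genes, 1 fell on poplar wood against Chinese fir wood, 1 was lower on Chinese fir wood than on rice straw, and none was called in the other 4 comparisons. Of all tested genes 6.73% and 14.2% were lower in those first 2 comparisons. The medians against PDA were -0.09 on poplar wood, 0.09 on rice straw and 0.03 on Chinese fir wood, and 0.13, 0.38 and 0.61 on the median-ratio scale, where 1 gene was called higher on each of the last 2. The most abundant member was nuo-49 (A04747), the 49 kDa subunit next to the ubiquinone site, with 97.6, 118 and 158 FPKM on poplar wood. It stood at 188, 164 and 175 FPKM on rice straw, 270.0, 236 and 283 on Chinese fir wood and 174, 177 and 184 on PDA. All Chinese fir wood libraries lay above all others, and all poplar wood libraries below all others. The difference between poplar wood and Chinese fir wood was -1.10 ± 0.19, adjusted p = 0.0008 (limma), and the call was lost without poplar wood replicate 1. The gene for a 19.3 kDa subunit, G17A4.170 (A06652), had 59.6, 43.01 and 70.7 FPKM on Chinese fir wood and 133, 118 and 127 on rice straw, with no overlap. That difference was -1.14 ± 0.22, adjusted p = 0.0021 (limma), and it no longer passed without Chinese fir wood replicate 2, without the 3 intermediate libraries and on the median-ratio scale.

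Single-subunit NADH dehydrogenases feed electrons to ubiquinone without pumping protons, and the 5 genes did not move together. The 3 genes named NDH2 are described as external enzymes, facing the intermembrane space. A14709 had 23.2, 38.6 and 52.97 FPKM on poplar wood, 12.6, 18.8 and 15.1 on rice straw, 23.9, 23.5 and 24.3 on Chinese fir wood and 18.1, 17.02 and 17.5 on PDA. Poplar wood replicate 1 lay just below the Chinese fir wood range, and poplar wood stood above rice straw and PDA in every library. The rise was 1.01 ± 0.26, adjusted p = 0.0081 against PDA and 1.19 ± 0.26 against rice straw (adjusted p = 0.0027), both from limma. The first call was lost without poplar wood replicate 2 or 3, PDA replicate 2 or the 3 intermediate libraries, and the second without poplar wood replicate 3. A15938, the most abundant of the group, ran the other way, with 10.8, 13.9 and 16.4 FPKM on poplar wood and 30.7, 36.5 and 26.5 on Chinese fir wood. It was lower on poplar wood, at -1.14 ± 0.30, adjusted p = 0.01 in limma, a call lost without poplar wood replicate 1 or the 3 intermediate libraries, and its PDA values of 38.3, 25.7 and 14.1 FPKM spread widely. The third NDH2 gene, A11978, with 15.7, 27.7 and 47.6 FPKM on poplar wood, passed no call.

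The 2 genes named NDE1, also external NADH dehydrogenases, were called in different comparisons. A17234 had 5.24, 5.44 and 5.67 FPKM on rice straw and 16.2, 19.4 and 16.7 on PDA, with 33.9, 9.86 and 6.29 on poplar wood and 17.5, 7.94 and 33.7 on Chinese fir wood. Rice straw lay below PDA in every library, at -1.51 ± 0.53, adjusted p = 0.043 in limma, and this call was lost whichever of the 6 libraries was left out. A17232 was weakly expressed, with 6.38, 4.76 and 4.37 FPKM on rice straw, 1.28, 2.29 and 1.49 on Chinese fir wood and 4.8, 4.75 and 3.89 on PDA. It was lower on Chinese fir wood than on rice straw, at -1.20 ± 0.20, adjusted p = 0.00076 in limma, in all libraries. Against PDA the difference was -1.04 ± 0.20 (adjusted p = 0.0012), a call that was lost on the median-ratio scale and without any of 3 libraries.

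Complex II, succinate dehydrogenase, links the tricarboxylic acid cycle to the chain, and none of its 5 tested genes was called in any comparison. Its best expressed gene was SDH2 (A14436), the iron-sulfur subunit, with 99.5, 132 and 154 FPKM on poplar wood and 131, 77.7 and 183 on Chinese fir wood. Rice straw gave 132, 144 and 139 FPKM and PDA 204, 223 and 255.8. PDA was above every other library, and the differences from PDA were -0.84 ± 0.27 on poplar wood and -0.87 ± 0.27 on Chinese fir wood, under 2-fold, with limma adjusted p = 0.028 and 0.02. On the median-ratio scale no complex II gene passed the adjusted p between Chinese fir wood and PDA. The other SDH2 gene, A07513, had 59.3, 69.4 and 85.2 FPKM on poplar wood and 129.8, 143 and 151 on PDA, a difference of -0.99 ± 0.24, adjusted p = 0.0063 in limma. The flavoprotein gene sdh1 (A06117) had 30.6, 7.94 and 28.7 FPKM on Chinese fir wood, where replicate 2 stood apart, and the sdh3 membrane anchor genes A13953 and A19363 had means of 4.99 and 4.87 FPKM.

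Complex III, which hands electrons from ubiquinol to cytochrome c, gave positive median differences from PDA on Chinese fir wood and rice straw, without a call on the deposited scale. The medians against PDA were 0.73 on Chinese fir wood, 0.02 on poplar wood and 0.62 on rice straw. All 9 genes had positive differences from PDA on Chinese fir wood and also on rice straw, and at an adjusted p under 0.05 alone 5 and 4 of them passed. By that rule 9.47% and 11.3% of all tested genes were higher. Without Chinese fir wood replicate 2, 5 of them were called higher on Chinese fir wood than on PDA, and on the median-ratio scale all 9 were. On rice straw 4 were called higher on that scale. The gene qcr7 (A02563), for a small subunit, was the most abundant, with 194, 371 and 553 FPKM on poplar wood and 429.9, 304 and 525 on Chinese fir wood. It stood at 247, 289 and 283 FPKM on rice straw and 277, 244 and 223 on PDA. Poplar wood replicates spanned the whole range of the other media, and no comparison was called. The gene qcr8 (A12516), another small subunit, had 101, 135 and 171 FPKM on poplar wood, 242, 249.9 and 308 on rice straw, 293, 225 and 371 on Chinese fir wood and 165, 160.3 and 151 on PDA. Poplar wood lay below Chinese fir wood and rice straw in every library. The difference from Chinese fir wood was -1.13 ± 0.23, adjusted p = 0.0024 (limma), the only complex III call, and was lost without poplar wood replicate 1 or Chinese fir wood replicate 3. Without poplar wood replicate 3 or without Chinese fir wood replicate 2, 4 complex III genes were called lower on poplar wood than on Chinese fir wood, and 5 on the median-ratio scale. With all 12 libraries, 6.73% of all tested genes were lower on the deposited scale and 11.4% on the median-ratio scale.

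The other subunits of complex III passed no call. Cytochrome c1, which passes the electron on, is encoded by CYT1 genes A07346 and A08588, with 201, 174 and 184 and 191, 161 and 168 FPKM on rice straw. PDA gave 108, 107 and 115 and 109, 104 and 101 FPKM, below rice straw in every library for both. The differences were 0.76 ± 0.26 and 0.72 ± 0.25, under 2-fold. The Rieske iron-sulfur genes fes-1 A00348 and A15175 differed by 0.87 ± 0.24 and 0.62 ± 0.25 between rice straw and PDA. The core gene QCR2 (A16297) was highest on Chinese fir wood, with 237, 181 and 301 FPKM, beside 130.0, 119.6 and 108 on PDA, at 0.98 ± 0.24, adjusted p = 0.0054 in limma.

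Cytochrome c, the soluble carrier between complexes III and IV, showed 2 patterns among its 4 genes, opposite between rice straw and either wood. All 4 had positive differences from PDA on poplar wood and Chinese fir wood, with medians of 0.54 and 0.64, without a call on poplar wood. The short genes cyc1 (A01413 and A13892, both 327 bp of coding length) were the most abundant members of the whole module. A01413 had 1242, 1123 and 1009 FPKM on poplar wood, 718, 836 and 810.0 on rice straw, 1649, 1314 and 2106 on Chinese fir wood and 899, 784 and 708 on PDA. Chinese fir wood lay above all other libraries, and poplar wood above rice straw and PDA. Chinese fir wood exceeded PDA by 1.06 ± 0.20 and rice straw by 1.08 ± 0.20 (limma adjusted p = 0.0011 and 0.0016). For A13892 the same differences were 1.06 ± 0.20 and 1.02 ± 0.20. All 4 calls were lost without Chinese fir wood replicate 3, both calls against PDA also without PDA replicate 3, and both calls against rice straw also without the 3 intermediate libraries. The rice straw call of A13892 was lost without rice straw replicate 1 as well.

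The longer genes CYCK (A01414, 741 bp) and cycA (A13893, 672 bp) were weakly expressed and highest on rice straw. CYCK had 19.6, 18.8 and 11.5 FPKM on poplar wood, 17.4, 43.8 and 31.4 on rice straw, 10.1, 10.3 and 10.04 on Chinese fir wood and 12.1, 12.3 and 5.28 on PDA. cycA had 19.5, 12.5 and 9.21 FPKM on poplar wood, 18, 54.7 and 37.2 on rice straw, 13.4, 7.87 and 15.7 on Chinese fir wood and 15.8, 9.67 and 6.46 on PDA. Rice straw replicate 1 was the lowest of its group for both genes and overlapped poplar wood. Against PDA, rice straw was higher by 1.54 ± 0.36 for CYCK and 1.64 ± 0.43 for cycA (limma adjusted p = 0.0057 and 0.011), calls that held without any 1 library but not without the 3 intermediate ones (adjusted p = 0.066 and 0.14). Against Chinese fir wood, CYCK on Chinese fir wood was lower, at -1.43 ± 0.36 (adjusted p = 0.0092), which held without any 1 library but not without the 3 intermediate ones. The same difference for cycA, -1.41 ± 0.43 (adjusted p = 0.024), was lost without any of 4 libraries. cycA was also lower on poplar wood than on rice straw, at -1.28 ± 0.43, adjusted p = 0.028 in limma, with overlapping groups, a call lost without any of 4 libraries. Within poplar wood, replicate 1 exceeded replicate 3 in all 4 cytochrome c genes, and some other members, among them etp1, PMA1 and the NDE1 gene A17234, did the same. Replicate 3 exceeded replicate 1 in 9 of 9 complex III, 6 of 6 complex IV subunit and 24 of 28 ATP synthase genes. It did so in 60.1% of all tested genes.

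Complex IV, cytochrome c oxidase, reduces oxygen to water, and most of its 6 subunit genes were lower on poplar wood than on the other plant materials. Against rice straw 5 of 6 fell, with a median of -1.48, and against Chinese fir wood 4 of 6 fell, with a median of -1.50. Of all tested genes 14.4% and 6.73% fell. All 6 passed the adjusted p alone in both. The summed level was 699 to 1200 FPKM on poplar wood, 1888 to 3257 on Chinese fir wood, 2351 to 2751 on rice straw and 1095 to 1681 on PDA. Poplar wood overlapped PDA, while Chinese fir wood and rice straw lay above both. Without the 3 intermediate libraries 2 genes were called lower than on Chinese fir wood. Against PDA, 1 rose on Chinese fir wood and none on rice straw, but 4 rose on Chinese fir wood without its replicate 2, 3 rose on rice straw without PDA replicate 1, and 5 rose in each on the median-ratio scale. The shares of all tested genes that rose on Chinese fir wood and rice straw were 5.91% and 6.81%, and 11.7% and 10% on the median-ratio scale.

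The most abundant subunit gene was cox12 (A01679), which in yeast encodes a small subunit on the intermembrane side. It had 307, 285 and 394 FPKM on poplar wood and 1208, 988 and 1214 on Chinese fir wood. Rice straw gave 875, 725 and 1052 FPKM and PDA 539, 429 and 364. Chinese fir wood and rice straw stood above PDA in every library, and poplar wood replicate 3 exceeded the lowest PDA library. Poplar wood was lower than Chinese fir wood, at -1.79 ± 0.21, and than rice straw, at -1.42 ± 0.21 (limma adjusted p = 8.6e-05 and 0.00024). Chinese fir wood exceeded PDA by 1.37 ± 0.21 (adjusted p = 0.0003). These 3 calls held without any 1 library, without the 3 intermediate libraries and on the median-ratio scale.

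The genes named cox-4 (A09836 and A16519), for subunit 4, were both lower on poplar wood than on Chinese fir wood and rice straw. A09836 had 33.2, 50.7 and 76.6 FPKM on poplar wood, 194, 218 and 229 on rice straw, 199, 119.9 and 286 on Chinese fir wood and 148, 104 and 79.99 on PDA. No poplar wood library reached any library of another medium. Its differences were -2.06 ± 0.35 from rice straw, -1.89 ± 0.35 from Chinese fir wood and -1.07 ± 0.35 from PDA (limma adjusted p = 0.00061, 0.0014 and 0.029). The PDA call was lost on the median-ratio scale and without any of 4 libraries. A16519 gave 39.4, 59.2 and 104 FPKM on poplar wood and 213, 229 and 240.1 on rice straw, a difference of -1.84 ± 0.36, and differed from Chinese fir wood by -1.59 ± 0.36. The gene cya-4 (A15866), for subunit 5, had 129, 208 and 287 FPKM on poplar wood, 489, 632 and 609 on rice straw, 583, 325 and 788 on Chinese fir wood and 418, 310.3 and 237 on PDA. Poplar wood lay below Chinese fir wood and rice straw throughout, at -1.42 ± 0.35 and -1.53 ± 0.35. The calls of A16519 and cya-4 against Chinese fir wood were lost without the 3 intermediate libraries. The COX6 genes (A04856 and A16369), for subunit 6, differed by -1.30 ± 0.28 and -0.88 ± 0.28 between poplar wood and rice straw, and only the first was called.

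**Figure D3:**
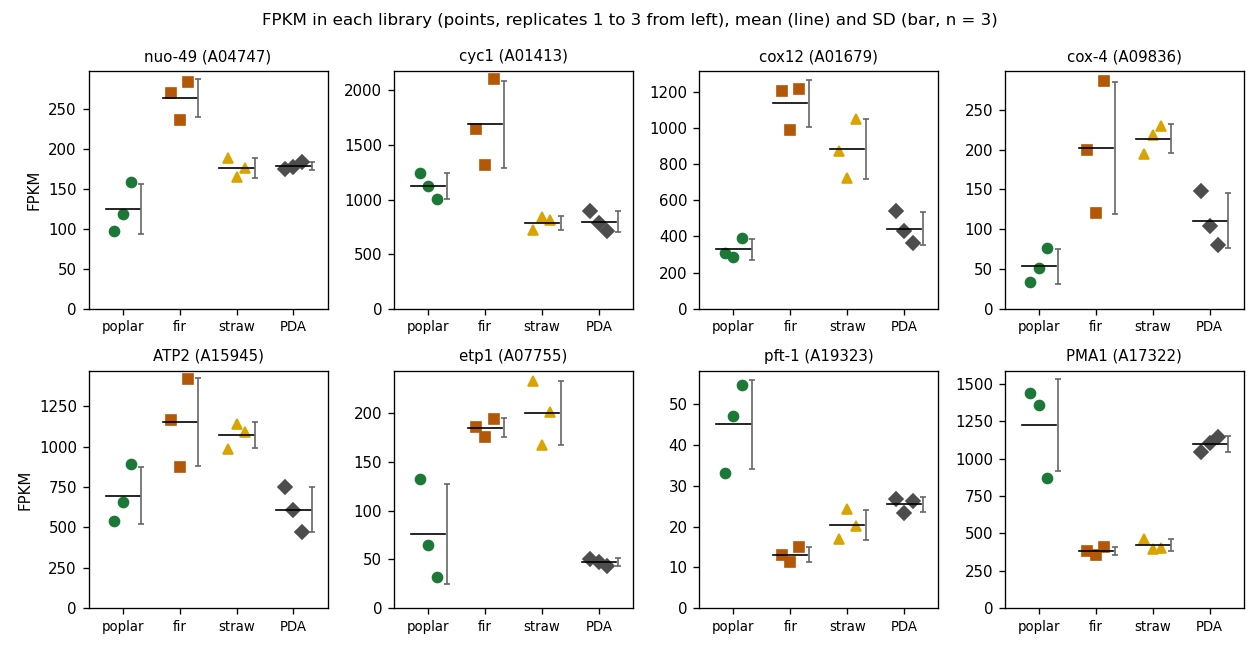
FPKM of 8 genes in each library, with replicates 1 to 3 from left to right within a medium, the mean as a line and the SD as a bar (n = 3), each panel with its own axis from 0. cox12 and cox-4 are low on poplar wood, cyc1 is highest on Chinese fir wood, etp1 is high on Chinese fir wood and rice straw, pft-1 is high on poplar wood, and PMA1 is high on poplar wood and PDA.

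Of the 3 genes for proteins that help build the cofactors of complex IV, 2 were highest on poplar wood and 1 was highest on rice straw and Chinese fir wood. COX11 (A01610), a copper delivery protein, had 29.3, 49.98 and 64.6 FPKM on poplar wood, 23.03, 25.3 and 26.03 on rice straw, 16.2, 13.9 and 19.6 on Chinese fir wood and 27.8, 28.96 and 29.1 on PDA. Poplar wood lay above the other media in every library and Chinese fir wood below them. The gene pft-1 (A19323) encodes protoheme IX farnesyltransferase, which starts the conversion of heme B to heme A, and it had 33.3, 47.2 and 54.9 FPKM on poplar wood, 17.04, 24.4 and 20.1 on rice straw, 13.03, 11.3 and 15.1 on Chinese fir wood and 26.9, 23.4 and 26.2 on PDA. It showed the same order of media except that 1 rice straw library lay within the PDA range. Poplar wood exceeded Chinese fir wood by 1.69 ± 0.21 for pft-1 and 1.42 ± 0.25 for COX11 (limma adjusted p = 0.00013 and 0.00098), calls that held without any 1 library, without the 3 intermediate libraries and on the median-ratio scale. Against rice straw pft-1 was higher by 1.08 ± 0.21 (adjusted p = 0.0015), a call lost without poplar wood replicate 3 or rice straw replicate 1. Between poplar wood and PDA both differences stayed under 2-fold, at 0.77 ± 0.21 and 0.66 ± 0.25.

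The third gene, etp1 (A07755), had another order. In fission yeast its product joins a heme A synthase part to a ferredoxin part. It had 132, 64.6 and 31.7 FPKM on poplar wood, 233, 167 and 201 on rice straw, 186, 175 and 194 on Chinese fir wood and 50.8, 47.7 and 42.98 on PDA. Chinese fir wood and rice straw lay above every poplar wood and PDA library, and poplar wood spread over a range that included PDA. The rises over PDA were 1.95 ± 0.38 for Chinese fir wood and 2.05 ± 0.38 for rice straw (limma adjusted p = 0.0012 and 0.0014), and both held without any 1 library. It was 1 of 2 members called higher on both. Poplar wood was lower than Chinese fir wood, at -1.50 ± 0.38, and than rice straw, at -1.60 ± 0.38 (adjusted p = 0.0078 and 0.0045), the first call being lost without poplar wood replicate 3, and also without the 3 intermediate libraries.

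ATP synthase turns the proton gradient into ATP, and many of its genes were lower on poplar wood than on the other plant materials. Of 28 tested genes, 12 fell on poplar wood against Chinese fir wood and 9 against rice straw, with medians of -0.92 and -0.64. None rose in either comparison, and 6.73% and 14.4% of all tested genes fell. Against PDA, 6 rose on Chinese fir wood, 2 rose and 1 fell on rice straw, and 1 fell on poplar wood. Of all tested genes 5.91% rose on Chinese fir wood, 6.81% rose and 14.1% fell on rice straw, and 17.1% fell on poplar wood. On the median-ratio scale 9 rose on rice straw and none fell, and 5 fell on poplar wood without poplar wood replicate 3. The count against Chinese fir wood was 19 without poplar wood replicate 3 and also 19 without Chinese fir wood replicate 2, and 20 on the median-ratio scale. The count against rice straw was 5 without poplar wood replicate 1 and 4 when the 3 intermediate libraries were left out. The 6 rises over PDA became 16 without Chinese fir wood replicate 2, 0 without replicate 3, 10 without PDA replicate 1 and 1 when the 3 intermediate libraries were left out, and they became 23 on the median-ratio scale. On that scale 11.7% of all tested genes rose on Chinese fir wood against PDA, and 10% rose and 8.25% fell on rice straw. Between poplar wood and Chinese fir wood 11.4% were then lower on poplar wood.

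Among the catalytic head genes, ATP2 (A15945), the beta subunit where ATP is made, was the most abundant. It had 543, 657 and 893 FPKM on poplar wood and 1164, 876 and 1419 on Chinese fir wood. Rice straw gave 987, 1143 and 1093 FPKM and PDA 751, 609 and 473. The poplar wood and PDA ranges overlapped, and both lay below rice straw, while poplar wood replicate 3 exceeded Chinese fir wood replicate 2. Its differences from PDA were 0.91 ± 0.25 for Chinese fir wood and 0.84 ± 0.25 for rice straw, under 2-fold, with limma adjusted p = 0.0094 and 0.02. The alpha subunit genes atp-1 (A10337 and A17699) were higher on Chinese fir wood than on PDA by 0.82 ± 0.27 and 0.86 ± 0.28, also under 2-fold.

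Other genes described as alpha subunit were low and moved differently. The ATP1 gene A11794 had 24.2, 17.1 and 15.5 FPKM on poplar wood, 13.9, 14.2 and 12.5 on rice straw, 14.5, 14.5 and 12.3 on Chinese fir wood and 26.9, 24.5 and 27.8 on PDA. Its differences from PDA were -0.89 ± 0.19 for Chinese fir wood and -0.91 ± 0.19 for rice straw, neither reaching 2-fold. A17270, with a coding length of 3093 bp, had means of 19.97 ± 7.47 FPKM on poplar wood and 18.7 ± 0.314 on PDA (SD, n = 3).

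The gamma subunit genes and a stator gene were lower on poplar wood than on the other plant materials. The stator gene was also higher on Chinese fir wood and rice straw than on PDA. ATP3 (A00296 and A11936) encodes the rotating gamma subunit. A00296 had 99.5, 142 and 174 FPKM on poplar wood, 285, 272 and 292 on rice straw, 319.6, 236 and 419 on Chinese fir wood and 192, 168 and 128 on PDA. Chinese fir wood and rice straw lay above PDA and poplar wood in every library, and the poplar wood and PDA ranges overlapped. Poplar wood was lower than Chinese fir wood, at -1.22 ± 0.26, and than rice straw, at -1.06 ± 0.26, and the values for A11936 were -1.27 ± 0.26 and -1.05 ± 0.26 (all limma adjusted p under 0.05). The calls against rice straw were lost without poplar wood replicate 1 or the 3 intermediate libraries. ATP4 (A07387), part of the stator stalk, had 294, 284 and 313 FPKM on rice straw, 318, 229.6 and 387 on Chinese fir wood and 152, 144 and 134 on PDA. It was the other member called higher than on PDA in both, by 1.05 ± 0.28 and 1.09 ± 0.28 (adjusted p = 0.013 and 0.0078), and the Chinese fir wood call was lost without replicate 3. Neither held without the 3 intermediate libraries. On poplar wood A07387 had 85.8, 140 and 209 FPKM. It was lower there than on Chinese fir wood and rice straw, at -1.16 ± 0.28 and -1.12 ± 0.28 (limma adjusted p = 0.0071 and 0.0072). Both of these calls were lost without poplar wood replicate 1 or the 3 intermediate libraries, the first also without Chinese fir wood replicate 3. Its copy A08646 reached 0.91 ± 0.29 on Chinese fir wood, under 2-fold.

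The smaller subunits gave single calls. ATP14 (A14899), the h subunit, was lower on poplar wood than on Chinese fir wood and rice straw, at -1.12 ± 0.30 and -1.23 ± 0.30, and both calls were lost without poplar wood replicate 1 or the 3 intermediate libraries, the first also without Chinese fir wood replicate 3. ATP15 (A15864), the epsilon subunit, was lower than on Chinese fir wood, at -1.25 ± 0.31, a call lost without poplar wood replicate 1 or the 3 intermediate libraries. ATP20 (A04343), the g subunit that in yeast helps pair ATP synthases, had 428, 402 and 447 FPKM on rice straw and 210.0, 199.5 and 189 on PDA. That rise was 1.09 ± 0.34, adjusted p = 0.026 in limma, and the call was lost whichever of the 6 libraries was left out. The delta gene atpD (A01863) and atp-5 (A06468), described as subunit 5, passed no 2-fold call, with -0.94 ± 0.30 and -0.85 ± 0.26 between poplar wood and Chinese fir wood.

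A group of 14 genes shares the name ATP17, described as the membrane subunit f, with coding lengths of 270 to 600 bp. Yeast has a single gene of this name, and which of the 14 encode that subunit was not tested. Of 13 tested, 7 fell on poplar wood against Chinese fir wood and 5 against rice straw, with medians of -1.64 and -0.91. The other 15 tested ATP synthase genes gave 5 and 4 falls, with medians of -0.87 and -0.62, so calls lower on poplar wood were present in both sets, beside 6.73% and 14.4% of all tested genes. Among those 15, the 5 falls became 2 without poplar wood replicate 1, 3 without Chinese fir wood replicate 3, 10 without poplar wood replicate 3 or Chinese fir wood replicate 2, and 2 when the 3 intermediate libraries were left out. They became 11 on the median-ratio scale and 2 in a fit of only the 2 groups compared. The 4 falls became 0 without poplar wood replicate 1 and 0 when the 3 intermediate libraries were left out.

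Levels within the ATP17 group ranged widely. The most abundant was A08682, with 65.3, 83.1 and 111 FPKM on poplar wood, 238, 282 and 283 on rice straw, 304, 235 and 405 on Chinese fir wood and 165, 141 and 143 on PDA. Chinese fir wood and rice straw overlapped each other, PDA lay below both and poplar wood below PDA, with no overlap. It was lower on poplar wood than on Chinese fir wood, at -1.85 ± 0.24, and than on rice straw, at -1.65 ± 0.24 (limma adjusted p = 0.00013 and 0.00017). A09236 had 4.93, 9.69 and 15.2 FPKM on poplar wood, 44.03, 36.3 and 39.6 on rice straw, 43.6, 31.96 and 54.4 on Chinese fir wood and 30.8, 26.5 and 24.7 on PDA. No poplar wood library reached another medium, and it was lower than Chinese fir wood, rice straw and PDA, at -2.10 ± 0.31, -2.02 ± 0.31 and -1.48 ± 0.31 (adjusted p = 0.00036, 0.00031 and 0.0028). These 3 calls held without any 1 library and without the 3 intermediate libraries.

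Among other ATP17 genes, A00155 was also lowest on poplar wood, while A00561, A17463 and A15397 had other orders of media. A00155 had 4.88, 11.2 and 14.7 FPKM on poplar wood, 21.0, 26.7 and 28.2 on rice straw, 54.8, 28.4 and 52.9 on Chinese fir wood and 19.5, 17.2 and 19.8 on PDA. Its poplar wood values lay below those of every other library. Poplar wood was lower than rice straw, at -1.33 ± 0.34 (limma adjusted p = 0.0075). That call was lost without poplar wood replicate 1 or the 3 intermediate libraries. A00155 was also lower on poplar wood than on Chinese fir wood, at -2.10 ± 0.34, and higher on Chinese fir wood than on PDA, at 1.17 ± 0.34 (adjusted p = 0.00061 and 0.014). The Chinese fir wood call against PDA was lost without Chinese fir wood replicate 1 or 3 or the 3 intermediate libraries. A00561 had 5.23, 6.35 and 8.74 FPKM on rice straw and 16.3, 14.98 and 15.8 on PDA, at -1.13 ± 0.25, adjusted p = 0.0049 in limma, the only ATP synthase gene that fell on rice straw. That call was lost without rice straw replicate 1 and on the median-ratio scale. A17463, with 16.1, 12.7 and 15.2 FPKM on Chinese fir wood and 24.4, 26.9 and 38.5 on PDA, differed by -0.96 ± 0.32, under 2-fold. A15397 stayed between 0.633 and 5.88 FPKM, and was higher on Chinese fir wood than on PDA and rice straw by 1.17 ± 0.32 and 1.17 ± 0.32, calls lost without Chinese fir wood replicate 3, the second also without rice straw replicate 1 or 2.

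The V-type ATPase, which acidifies the vacuole, had genes called lower on poplar wood against PDA and against rice straw. None of its 18 genes was called between poplar wood and Chinese fir wood. On poplar wood 5 fell against PDA and 3 against rice straw, with medians of -0.70 and -0.49, and on Chinese fir wood 2 fell against PDA. Of all tested genes 17.1%, 14.4% and 24.5% fell in these comparisons, so that 3 and 2 of 18 lay near or under the background. The 5 falls became 0 without poplar wood replicate 1, 10 without replicate 3, 2 without PDA replicate 1, 0 without the 3 intermediate libraries and 3 on the median-ratio scale. The 3 falls against rice straw became 0 without poplar wood replicate 1, 8 without replicate 3 and 1 without rice straw replicate 3 or the 3 intermediate libraries. They became 6 on the median-ratio scale. In a fit of only the 2 groups compared, 0 genes fell against PDA and 1 against rice straw. The 2 falls on Chinese fir wood became 0 on the median-ratio scale, where 2 genes rose, and 4 without Chinese fir wood replicate 3 or PDA replicate 3. Poplar wood replicate 3 exceeded replicate 1 in all 18 genes, with a median of 1.27 log2 units, where the median over all tested genes was 0.27, and its part in these counts was not tested.

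Among its subunits, VMA4 (A14210), subunit E of the stalk, was the most abundant, at 98.8, 152 and 238 FPKM on poplar wood and 180.1, 164 and 150.3 on PDA, and was not called. The gene vma13 (A12794), subunit H, which couples the head to the membrane part, had 6.15, 8.79 and 23.2 FPKM on poplar wood, 23.2, 24.6 and 23.1 on rice straw, 11.4, 11.1 and 13.9 on Chinese fir wood and 35.7, 29.8 and 24.1 on PDA. Every poplar wood and Chinese fir wood library lay below every PDA library. The differences from PDA were -1.35 ± 0.35 on poplar wood and -1.22 ± 0.35 on Chinese fir wood (limma adjusted p = 0.0091 and 0.013). Both were lost without the 3 intermediate libraries, and the poplar wood call without poplar wood replicate 1. The Chinese fir wood call was lost without PDA replicate 1 and, at -0.66, on the median-ratio scale. The subunit C gene vma5 (A04253) had 29.4, 50.4 and 66.3 FPKM on poplar wood, 111, 115 and 115 on rice straw, 42.8, 38.5 and 48.2 on Chinese fir wood and 108, 90.2 and 85.1 on PDA. Both woods lay below rice straw and PDA in every library. Against rice straw it was lower on poplar wood, at -1.28 ± 0.25, and on Chinese fir wood, at -1.38 ± 0.25 (adjusted p = 0.0015 and 0.0014). The first call was lost without poplar wood replicate 1 and the second without the 3 intermediate libraries. Against PDA it was also lower, at -1.01 ± 0.25 and -1.11 ± 0.25 (limma adjusted p = 0.007 and 0.0033). Both PDA calls were lost on the median-ratio scale and without the 3 intermediate libraries, the poplar wood call also without poplar wood replicate 1 or PDA replicate 1. The nucleotide-binding subunit B genes VMA2 (A03331 and A17643) were lower on poplar wood than on PDA, at -1.32 ± 0.40 and -1.29 ± 0.35, calls lost without poplar wood replicate 1 or the 3 intermediate libraries, the first also without PDA replicate 1 or 2. The membrane ring genes vma16 (A05496 and A18936) had positive differences between poplar wood and rice straw, 0.60 ± 0.18 and 0.85 ± 0.18, under 2-fold.

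The plasma membrane ATPase pumps protons out of the cell, and PMA1 (A17322) was lower on Chinese fir wood and rice straw than on poplar wood and PDA. It had 1440.3, 1359.8 and 871 FPKM on poplar wood, 466, 396 and 406 on rice straw, 383, 358 and 407 on Chinese fir wood and 1043, 1106 and 1148 on PDA. Chinese fir wood and rice straw lay below all 6 other libraries, and poplar wood overlapped PDA. Poplar wood exceeded Chinese fir wood by 1.64 ± 0.20 and rice straw by 1.50 ± 0.20 (limma adjusted p = 9.5e-05 and 0.0001). Against PDA it was lower on Chinese fir wood, at -1.52 ± 0.20, and on rice straw, at -1.38 ± 0.20 (adjusted p = 8.5e-05 and 0.00029). All 4 calls held without any 1 library, and on the median-ratio scale the Chinese fir wood difference of -0.93 fell short of 2-fold. The genes pma-1 A05159 and A14675 were weakly expressed, with means over all libraries of 2.8 and 3.64 FPKM.

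Inorganic pyrophosphatase, IPP1 (A00501), had 55.5, 163 and 301 FPKM on poplar wood and 301, 306 and 323 on PDA, so that poplar wood replicate 3 lay just below the PDA range, and no comparison was called, although its difference was -1.14 ± 0.45 (limma adjusted p = 0.06). The gene lbsA (A04140) had 20.9, 21.3 and 38.7 FPKM on poplar wood and 40.4, 41.7 and 45.3 on PDA, a difference of -0.69 ± 0.24, under 2-fold.

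Of the 8 members with no description, 5 were called somewhere, and they held the largest differences of the module. A07884, the most abundant by mean, had 74.6, 66.05 and 119.7 FPKM on poplar wood, 180.4, 292 and 263 on rice straw, 587, 303 and 883 on Chinese fir wood and 408, 311 and 224 on PDA. Poplar wood lay below every other library. It was lower than Chinese fir wood, PDA and rice straw, at -2.67 ± 0.38, -1.85 ± 0.38 and -1.51 ± 0.38 (limma adjusted p = 0.00026, 0.0022 and 0.0067). Chinese fir wood exceeded rice straw by 1.16 ± 0.38, a call lost without any of 5 libraries, and the call between poplar wood and rice straw was lost without the 3 intermediate libraries. A07909 separated the media differently, with 19.2, 69.01 and 88.1 FPKM on poplar wood and 35.9, 36.3 and 27.2 on Chinese fir wood. Rice straw gave 404, 307 and 359.9 FPKM and PDA 432, 374 and 437. Both woods lay below rice straw and PDA in every library. It was lower than PDA on Chinese fir wood, at -3.61 ± 0.42, and on poplar wood, at -3.05 ± 0.42 (adjusted p = 3.7e-05 and 0.00016), and lower than rice straw, at -3.39 ± 0.42 and -2.83 ± 0.42. These 4 calls held without any 1 library, without the 3 intermediate libraries and on the median-ratio scale.

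A00641 was low on poplar wood, with 0.91, 1.75 and 1.14 FPKM. It had 209, 393 and 322 FPKM on rice straw, 184, 17.5 and 331 on Chinese fir wood and 359, 183 and 5.28 on PDA. Every library off poplar wood was higher, but replicates of one medium differed widely, and on PDA replicate 3 was near the poplar wood level. Poplar wood was lower than rice straw, Chinese fir wood and PDA, at -7.06 ± 1.30, -5.54 ± 1.30 and -5.06 ± 1.30 (adjusted p = 0.00096, 0.0054 and 0.0084). Without the 3 intermediate libraries the PDA difference was -4.41 with an adjusted p of 0.071. A01593 was lower on poplar wood than on rice straw, at -1.82 ± 0.29, and that call held without any 1 library. A02968 was lower on poplar wood than on Chinese fir wood, at -1.51 ± 0.42, a call lost without poplar wood replicate 1, Chinese fir wood replicate 3 or the 3 intermediate libraries.

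Many members come in pairs, and this limits how far single genes can be told apart. Of the 101 described members, 76 share their description with at least 1 other member, under 28 descriptions, and 22 descriptions belong to exactly 2 genes. In 21 of these both genes were tested, and in 16 of the 21 both had the same coding length. In 12 pairs the 2 genes differed by less than 1.5-fold in each of the 12 libraries, and in 18 by less than 2-fold, on the FPKM + 1 scale. For cyc1, the log2 ratio of A01413 to A13892 ran from 0.01 to 0.19. For ATP3 the log2 ratio of A00296 to A11936 ran from -0.04 to 0.15. The pair farthest apart was NDE1, where the log2 ratio of A17232 to A17234 ran from -3.80 to 0.24. Reads of near-identical copies can be split or exchanged by counting, so values of single genes within a close pair are uncertain, and calls of both members of a pair are not independent.

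**Figure D4:**
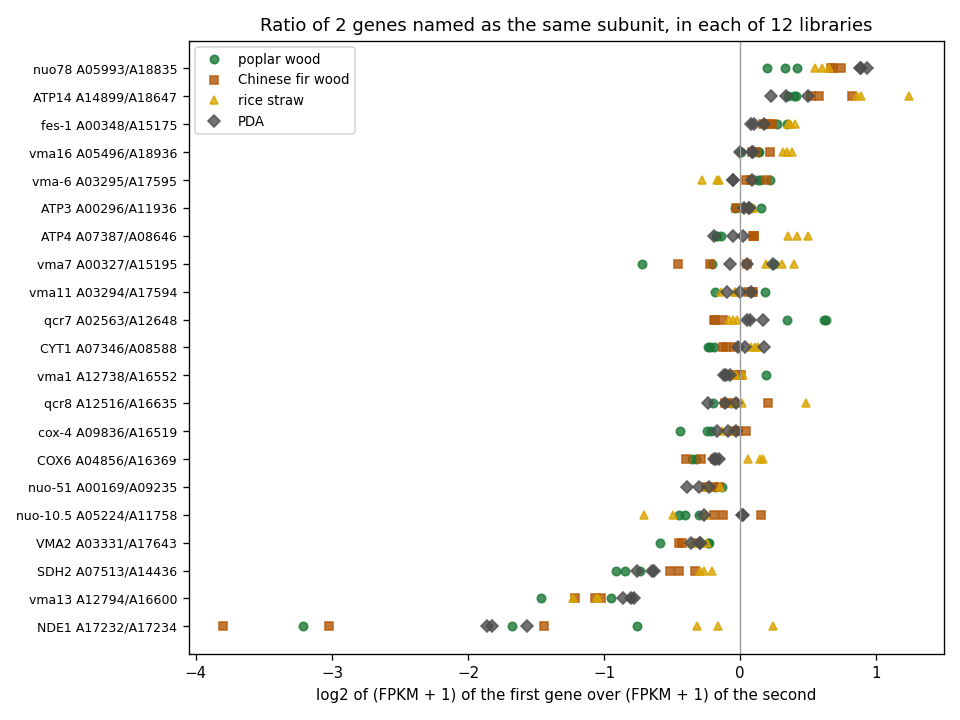
Log2 ratio of (FPKM + 1) between the 2 genes of each description held by exactly 2 tested genes, for 21 pairs (one line each) in each of the 12 libraries (points, by medium). Most pairs stay within 1 log2 unit of 0 in every library, and NDE1 ranges from -3.80 to 0.24.

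Genes around the pathway were taken from lists made by description. The single alternative oxidase gene, AOX1 (A02377), which reduces oxygen without complexes III and IV, had 15.9, 2.68 and 2.14 FPKM on poplar wood and 21.9, 8.64 and 32.5 on Chinese fir wood. Rice straw gave 36.1, 129 and 87.03 FPKM and PDA 166, 76.1 and 9.48. Replicates differed by over 10-fold on PDA, and poplar wood overlapped PDA but not rice straw. Poplar wood was lower than rice straw, at -3.70 ± 0.94 (limma adjusted p = 0.0071), which held without any 1 library and without the 3 intermediate libraries. The difference from PDA was -3.15 ± 0.94 (adjusted p = 0.018) and was lost without any of 4 libraries. PDA replicate 3 was far below the other PDA libraries for AOX1 and for the undescribed A00641, a likeness noticed after the values were seen.

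Assembly genes moved singly. Of 4 cytochrome c heme lyase genes, which attach heme to cytochromes c and c1, CYC3 (A07362) was lower on poplar wood and Chinese fir wood than on rice straw, at -1.23 ± 0.26 and -1.48 ± 0.26, the first call being lost without poplar wood replicate 3. The holocytochrome c1 synthase gene A16209 was lower on Chinese fir wood than on PDA, at -1.09 ± 0.19, though not on the median-ratio scale, and the others, CYC3 A08604 and A11290, passed no 2-fold call. Of 10 genes described as the chaperone BCS1, which in yeast inserts the Rieske protein into complex III, 2 fell and none rose on poplar wood against PDA, 4 fell on Chinese fir wood, and 2 rose and 1 fell on rice straw. Of all tested genes 17.1%, 24.5% and 14.1% fell and 8.3%, 5.91% and 6.81% rose on the 3 substrates. The Chinese fir wood split became 2 rises and 2 falls on the median-ratio scale. The best expressed of them, A05427, had 105, 101 and 62.9 FPKM on poplar wood, 564, 814 and 699 on rice straw, 247, 191 and 296 on Chinese fir wood and 1283, 1162 and 1035 on PDA. Its 4 groups did not overlap, and poplar wood was -3.71 ± 0.24 from PDA (adjusted p = 1e-06). A07919 was instead low on rice straw, with 2.71, 3.69 and 3.37 FPKM, and on Chinese fir wood, with 7.92, 7.06 and 7.14. It had 47.9, 124 and 110.0 FPKM on poplar wood and 185, 129 and 72.0 on PDA. Of 15 other assembly factor genes, none was called on poplar wood against PDA, 5 fell on Chinese fir wood, and 1 rose and 3 fell on rice straw, beside the same shares of all tested genes. On the median-ratio scale 1 rose and none fell on Chinese fir wood, and 1 rose and 2 fell on rice straw. SCO1 (A10137), which supplies copper to complex IV, had 9.45, 17 and 36.3 FPKM on poplar wood and 61.9, 84.6 and 74.7 on rice straw, a difference of -1.95 ± 0.41, adjusted p = 0.0024 in limma. COA1 (A11252), another complex IV assembly factor, was higher on poplar wood than on Chinese fir wood by 1.41 ± 0.36, lost without poplar wood replicate 3 or the 3 intermediate libraries. SDH8 (A01870), an assembly factor of complex II, was lower than PDA on Chinese fir wood and rice straw, at -1.27 ± 0.16 and -1.32 ± 0.16, the first call being lost on the median-ratio scale.

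Of 41 mitochondrial carrier genes, 7 rose and 7 fell on poplar wood against PDA, 5 rose and 8 fell on Chinese fir wood, and 5 rose and 5 fell on rice straw. On poplar wood 8.3% of all tested genes rose and 17.1% fell, on Chinese fir wood 5.91% and 24.5%, and on rice straw 6.81% and 14.1%. The median-ratio scale gave 10 rises and 6 falls on poplar wood, 9 and 4 on Chinese fir wood, and 8 and 2 on rice straw, so the balance of the counts turned on Chinese fir wood. The ADP/ATP translocase gene A04150, which exports the ATP made by ATP synthase, was the most abundant of them. It had 4498, 5051 and 5686 FPKM on poplar wood, 2794, 3207 and 3043 on rice straw, 3601, 2924 and 4195 on Chinese fir wood and 2347, 2280.0 and 2212 on PDA. Poplar wood lay above every other library, and its rise over PDA was 1.15 ± 0.18, adjusted p = 0.00044 in limma. The phosphate carrier gene A01800 was highest on Chinese fir wood, at 160.3, 153 and 179.8 FPKM beside 43.9, 49.3 and 42.5 on PDA, a rise of 1.84 ± 0.16. The citrate transporter gene ctpC (A06810) was low on both woods, with 8.42, 22.2 and 12.1 FPKM on poplar wood and 44.3, 51.04 and 42.9 on Chinese fir wood against 257, 269 and 300.4 on PDA. The GTP/GDP carrier gene GGC1 (A15792) rose on poplar wood over PDA by 1.39 ± 0.27.

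Of 26 tested genes of the tricarboxylic acid cycle and pyruvate dehydrogenase, 1 rose and 9 fell on poplar wood against PDA, 2 rose and 9 fell on Chinese fir wood, and 2 rose and 4 fell on rice straw, beside the shares of all tested genes just given. The split depended on the scale, since median-ratio values gave 3 rises and 7 falls on poplar wood, 8 and 5 on Chinese fir wood, and 5 and 2 on rice straw. Both subunit genes of succinate-CoA ligase rose on rice straw. The alpha gene A04076 had 1590.0, 1624 and 1666 FPKM on rice straw and 465, 574 and 696 on PDA, with 125, 369.5 and 255 on poplar wood. Rice straw exceeded every other library, by 1.51 ± 0.32 over PDA, and the beta gene SCSB (A04296) rose by 2.03 ± 0.42 (adjusted p = 0.0033 and 0.0028), and neither call held without the 3 intermediate libraries. The isocitrate dehydrogenase gene IDH1 (A08098) rose on Chinese fir wood over PDA by 1.33 ± 0.27, with its replicates at 398, 227 and 563 FPKM, a call lost without the 3 intermediate libraries. The malate dehydrogenase gene MDH1 (A14908), described as cytoplasmic, fell on all 3 substrates, at -2.74 ± 0.37, -2.41 ± 0.37 and -2.17 ± 0.37. The kgd2 gene (A17229), for a subunit of 2-oxoglutarate dehydrogenase, rose on poplar wood by 1.13 ± 0.16.

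The 10 genes described as subunits of these complexes but without the pathway name gave 1 call on the deposited scale. This was atp7 (A07773), ATP synthase subunit d, with 77.2, 95.8 and 120.3 FPKM on poplar wood and 211, 164 and 242 on Chinese fir wood. Poplar wood was lower in every library, at -1.07 ± 0.21, adjusted p = 0.0021 in limma, and the call was lost without poplar wood replicate 1 or Chinese fir wood replicate 3. The other 9 were 6 complex I genes, 2 vma-3 genes of the V-type ATPase and new16, described as a complex IV subunit-like protein.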

How the data were processed

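The deposited table held FPKM values of 16059 genes in 12 libraries, computed by the authors before deposit, and gave symbols, descriptions and pathways beside them. The tools listed, per the submitters' processing notes, are fastp, HISAT2, HTSeq and DESeq2. Their versions, the genome build and the annotation are not given in the sources used here, and no sequence is printed. FPKM is relative to each library's total, so a few abundant genes can shift all other values. Whole reads were worked back for 16059 of 16059 genes within 0.001, and 99.9% of the gene lengths this gave were multiples of 3 bp, hence the term coding length. Library totals were 23398461 to 31132066 reads, and intervals from these would cover counting error only.

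Members, complexes and companion lists came from pathway names and descriptions, and were chosen with earlier results of these data known. Log2(FPKM + 1) of genes with at least 1 FPKM in at least 3 libraries was fitted with limma (version 3.58.1, R 4.3.3), 1 fit of the 4 groups with 8 residual degrees of freedom before moderation, and p-values were adjusted by Benjamini-Hochberg over 13974 genes. Tables were made with Python 3.11.15, numpy 2.4.6 and pandas 2.3.3, and figures with matplotlib 3.10.9. The fit and the read recovery were tested on simulated data. The median-ratio scale divides each library by its median ratio to the geometric mean of all libraries.

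Named members were the most abundant of each complex, the 3 largest called rises and falls of each comparison with at least 10 FPKM in the higher group, members sharing a subunit name, and members below the filter. From companion lists all genes were named where a list held 5 or fewer, and otherwise called genes picked for abundance. G17A4.170, QCR2, cya-4, atp-5, atpD, ATP15, ATP20, vma5, A01593 and A02968 were chosen after their values were seen.

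The labels call the samples biological replicates without naming separate cultures. Replicate numbers were not treated as pairs across media in the main fit. Of 18 same-number pairs, deviations from the group means correlated between -0.19 and 0.33, and 2 exceeded 0.1. Pairs of different number were not compared, so this check cannot show whether replicates were paired. Alternatives tried were a pseudocount of 0.1, no filter, no fold threshold, TPM, median-ratio scaling, a fit of only the 2 groups compared, voom fitted to the recovered reads, the replicate number added as a block, omission of each library in turn, and omission of the 3 intermediate libraries. The last of these together with median-ratio scaling was chosen after seeing the data.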

Additional observations from a re-analysis of the deposited data

How the results depend on the processing

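Counts of members called are given as higher and lower, without the shares of all tested genes in the same fits. Leaving out 1 library at a time gave 0 to 2 and 4 to 25 for poplar wood against PDA, 2 to 29 and 4 to 8 for Chinese fir wood against PDA, and 4 to 8 and 1 to 3 for rice straw against PDA. For poplar wood it gave 3 to 5 and 17 to 37 against Chinese fir wood and 2 to 6 and 16 to 38 against rice straw, and for Chinese fir wood against rice straw 0 to 7 and 4 to 8. The F test gave 52 to 86 members. Without the 3 intermediate libraries, in the same order of comparisons, the counts that moved by more than 1.5 times were 0 and 3 for poplar wood against PDA, 5 and 2 for Chinese fir wood against PDA, 1 higher for rice straw against PDA, 14 lower in each poplar wood comparison with a plant material, 1 and 2 for Chinese fir wood against rice straw, and 21 in the F test, a setting with 9 libraries. Median-ratio scaling gave 47 and 1 for Chinese fir wood and 23 and 1 for rice straw against PDA, 39 lower for poplar wood against Chinese fir wood and 13 higher for Chinese fir wood against rice straw. With both changes together, poplar wood had 3 lower, Chinese fir wood 27 and 1, and rice straw 2 and 0 against PDA, Chinese fir wood had 1 lower against rice straw, and the F test gave 45. Without the fold threshold the counts were 3 and 23, 29 and 15, and 23 higher against PDA on the 3 substrates, 41 lower for poplar wood against Chinese fir wood, 8 and 43 against rice straw, and 9 and 11 for Chinese fir wood against rice straw. TPM gave 4 and 10 for Chinese fir wood and 3 higher for rice straw against PDA, and a fit of only the 2 groups gave 0 and 4 for poplar wood against PDA. Counts without the fold threshold can only be equal or higher. The cause of the other shifts was not tested. In fits with fewer libraries, the smaller number cannot be told apart from which libraries were left out. A pseudocount of 0.1, no filter and voom moved no count by more than 1.5 times.

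With replicate number as a block, 12 members were lower on poplar wood than on PDA, and no other count changed, the 68 of the F test included. Of 34 named differences none reversed under any alternative. The call was lost in 28 of 204 fits without 1 library, 12 without the 3 intermediate libraries and 5 after scaling. With 3 libraries a medium, 2 of the media with wide replicate spread, many counts above rest on 1 library.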
